A study of Mus musculus with 69 samples.

Results

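The genes described here are those of the T cell receptor (TCR) complex, its coreceptors and its first kinases: the signalling chains Cd3d, Cd3e, Cd3g and Cd247, the coreceptors Cd4, Cd8a and Cd8b1, the kinases Lck and Zap70, and the inhibitory receptor Cd5. They were taken by name and by no cutoff on their values, but with earlier results of these data known. They make up 10 of the 24309 gene symbols shared by the 3 count tables of the series (CD8+ T cells, CD4+ T cells and retrovirus-transduced cells). Each of the 10 has a row in all 3 tables. The 69 mRNA libraries came from mice with all 4 alleles of the paralogous transcription factors STAT5A and STAT5B (WT, Stat5a+/+ Stat5b+/+) and from germline knockouts that keep a single allele, of Stat5b in AAB mice (Stat5a-/- Stat5b+/-) and of Stat5a in BBA mice (Stat5a+/- Stat5b-/-). CD8+ cells of pooled lymph nodes and spleens were sorted into naive cells (Tnv, CD44 low and CD62L high), central memory cells (Tcm, CD44 high and CD62L high) and effector memory cells (Tem, CD44 high and CD62L low; the labels call them effector), and the CD4+ libraries analysed here are of Tnv. Each CD8 group of 1 genotype, state and culture held 2 libraries (24 groups, 48 libraries), with IL-7 given to Tnv and Tcm and IL-15 to all 3 states. The 15 CD4 libraries with a group were 3 WT, 2 AAB and 2 BBA without cytokine and 3 WT, 2 AAB and 3 BBA with IL-7. The mice were 8 to 16 weeks old by the study's methods. The 4 retrovirus libraries were labelled as CD8+ T cells of AAB mice, activated in vitro and given a vector with constitutively active STAT5A (S5a, 2 libraries) or an empty vector (Ctl, 2 libraries). Because the deletions are germline, all cells of a mouse carry them, and the retrovirus cells of both vectors also lacked Stat5a and 1 allele of Stat5b.

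Cytokine-treated cells were cultured for 12 to 16 h by the labels (up to 18 h by the study's methods), whereas the study describes the cells without cytokine as taken straight from the mouse. Every difference between cytokine and no cytokine below is thus also a difference between culture and no culture, and these cannot be told apart. In bulk RNA, fewer cells of a type and less RNA per cell cannot be told apart either. Levels are given as normalised CPM, library-size normalised counts after edgeR's TMM scaling, and a gene is said to have risen or fallen only where it was called: more than 1.5-fold different, with a Benjamini-Hochberg adjusted p under 0.05 over all genes tested by edgeR's quasi-likelihood test. All adjusted p values below come from that test. Errors of fold changes are standard errors (SE) on the log2 scale. With 2 or 3 libraries a group, p values measure only the spread between these libraries, part of which may be technical. Where groups are said not to overlap, this only describes the libraries. So few libraries can part by chance, and the share of all genes without overlap is not given.

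A TCR heterodimer that binds peptide and MHC has no signalling domain of its own. It is carried by the CD3 chains (delta, epsilon and gamma, from Cd3d, Cd3e and Cd3g) and by a dimer of the zeta chain (Cd247), whose tyrosine motifs are phosphorylated by the Src family kinase Lck and then bound by the Syk family kinase Zap70. CD4, which binds MHC class II, and the CD8 heterodimer (alpha from Cd8a, beta from Cd8b1), which binds class I, bring Lck to the receptor. CD5 is a surface receptor that restrains TCR signalling, and its level on naive T cells is known to follow the strength of their contact with self peptides. IL-7 and IL-15 are survival cytokines of naive and memory T cells and signal through STAT5.

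On GRCm38, with GENCODE M21 annotation, all 10 are protein coding. Cd3g (chr9:44969572-44980431, minus strand), Cd3d (chr9:44981786-44987339, plus) and Cd3e (chr9:44998740-45009627, minus) are neighbours. Cd3d and Cd3g start back to back on opposite strands. Cd8b1 (chr6:71322788-71337494, plus) and Cd8a (chr6:71373427-71379173, plus) also lie side by side, while Cd4 (chr6:124864692-124888221, minus) is farther along the same chromosome. Cd247 (chr1:165788681-165877277, plus) and Zap70 (chr1:36761798-36782818, plus) are on chromosome 1, Lck (chr4:129548344-129573641, minus) is on chromosome 4 and Cd5 (chr19:10717116-10739002, minus) on chromosome 19.

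The promoter windows of Cd3d, Cd3g and Cd5 are shown because the first pair moved together across the libraries and Cd5 was the gene with the single called difference in response between genotypes. Each runs from 250 bases before the annotated start to 50 after it (RefSeq, GRCm38.p6), and capitals mark TTCNNNGAA, the palindromic core motif of STAT dimers.
Cd3d, chr9:44981536-44981835, plus: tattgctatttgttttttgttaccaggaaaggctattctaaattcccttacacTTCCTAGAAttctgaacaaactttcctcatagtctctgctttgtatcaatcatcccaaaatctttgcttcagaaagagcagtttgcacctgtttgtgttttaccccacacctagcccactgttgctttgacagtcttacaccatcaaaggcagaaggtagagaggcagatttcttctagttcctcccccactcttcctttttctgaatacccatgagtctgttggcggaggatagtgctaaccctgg
Cd3g, chr9:44980382-44980681, minus: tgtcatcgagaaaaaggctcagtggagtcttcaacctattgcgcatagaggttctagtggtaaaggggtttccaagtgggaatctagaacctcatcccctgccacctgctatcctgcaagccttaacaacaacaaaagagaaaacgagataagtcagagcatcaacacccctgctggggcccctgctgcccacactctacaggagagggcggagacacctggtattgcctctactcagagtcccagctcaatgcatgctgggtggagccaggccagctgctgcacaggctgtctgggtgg
Cd5, chr19:10738925-10739224, minus: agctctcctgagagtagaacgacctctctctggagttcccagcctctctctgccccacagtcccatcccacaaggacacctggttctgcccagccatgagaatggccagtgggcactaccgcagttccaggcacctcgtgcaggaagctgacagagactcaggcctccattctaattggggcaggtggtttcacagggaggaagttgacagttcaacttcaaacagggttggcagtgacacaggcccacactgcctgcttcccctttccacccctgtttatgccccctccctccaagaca
RefSeq windows were found for 8 of the genes (11 windows, since Lck has 2 and Zap70 has 3). The motif, a palindrome that a single search finds on both strands, occurred once, in the Cd3d window, beginning at position -197 from the start. It was in 8.3% of all 32851 windows of this length (2726 windows). The match is a description of these letters and no evidence of binding. Cd4 and Cd8b1 had no window in the table used.

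Counts on genes were 5926139 to 25612758 per CD8 library, 6705004 to 34118295 per CD4 library and 11020965 to 16516525 per retrovirus library. The genes with both alleles deleted were lower as labelled: the log2 fold change of Stat5a in AAB against WT was -5.92 to -3.96 and that of Stat5b in BBA -1.95 to -1.38. Stat5b counts remained in BBA, since no CD8 library held under 49.1 CPM. The loss of 1 Stat5a allele in BBA was not seen everywhere. Stat5a differed from WT by -0.19 in CD8 Tnv with IL-7 (adjusted p = 0.834). In CD4 Tnv it differed by -0.37 with IL-7 (adjusted p = 0.339) and by -0.53 without cytokine (adjusted p = 0.639). Sex was read from X- and Y-linked transcripts. CD8 Tnv with IL-7 were all male (6 libraries) and CD8 Tcm with IL-7 were 4 male and 2 female, while every other CD8 condition was female and all CD4 libraries were male. The IL-7 response of CD8 Tnv therefore cannot be told apart from sex. Both WT Tcm libraries with IL-7 were male, while AAB and BBA each had 1 male and 1 female, so the IL-7 response of Tcm and its genotype comparisons are mixed with sex too. The IL-15 responses and the CD4 response were each measured within 1 sex. Among WT libraries, 2 stood apart: CD8 Tnv with IL-15 replicate 2, with 236 CPM of Cd4 where replicate 1 had 6.52, and CD8 Tcm with IL-7 replicate 1, with 444 CPM of Zap70 where replicate 2 had 226. For some results that rest on them, values without them are given too. Shares over all genes, counts over lists of genes and correlations include both.

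Across the 48 CD8 libraries, the coreceptors and Lck were the most abundant and Cd5 the least of the genes of the CD8 lineage. Per kilobase of merged exon, the median level was 684 CPM for Cd8b1, 380 for Cd8a and 318 for Lck. It was 216 for Cd3d, 132 for Cd3g, 109 for Cd3e and 52.8 for Cd247, so that the transcripts of the 4 signalling chains were not present at equal levels. Zap70 stood at 83.3 and Cd5 at 44.4. In the 15 CD4 libraries the 6 highest per kilobase were Lck (256), Cd4 (187), Cd3d (186), Cd3g (133), Cd247 (86.9) and Cd3e (84.6), and the medians of Cd4 and Cd3d, like those of Cd247 and Cd3e, lay closer together than the libraries spread.

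Before length correction, the mean level in CD8 libraries was 398 ± 72.5 CPM (SD, n = 48) for Cd3d, 450.2 ± 50.4 for Cd3e, 443 ± 93.1 for Cd3g, 285 ± 40.3 for Cd247, 1396 ± 288 for Cd8a, 999 ± 180 for Cd8b1, 918 ± 115 for Lck, 266 ± 65.3 for Zap70 and 227 ± 56.1 for Cd5. In CD4 libraries, whose table was normalised separately, the means were 336 ± 55 CPM (SD, n = 15) for Cd3d, 386 ± 104 for Cd3e, 393 ± 91.7 for Cd3g, 470.1 ± 27 for Cd247, 860 ± 201 for Cd4, 856 ± 198 for Lck, 222 ± 48.1 for Zap70 and 358 ± 128 for Cd5. Cd247 was thus the steadiest of the genes in CD4 cells and Cd5 among the most variable in both lineages.

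The coreceptor of the other lineage was nearly absent. Cd4 in CD8 libraries had a median of 3.40 CPM, from 0.0799 to 236, and Cd8a in CD4 libraries a median of 0.852, from 0.574 to 8.68. Cd8b1 was different: all 15 CD4 libraries held it at 9.09 to 22.4 CPM, above Cd8a in the same libraries. Cells were sorted on surface CD3 and on CD4 or CD8 alpha, so the presence of Cd4 or Cd8a in its own lineage is no finding.

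Counts of calls among the 10 genes are set here beside the share of all tested genes called in the same comparison. WT and knockout CD8 cells of the same state and culture differed in none of the 152 gene and comparison pairs tested by edgeR's quasi-likelihood test, although 20 had an unadjusted p under 0.05 and DESeq2 called 3. Over all genes the AAB share was 0.164% for untreated Tnv, 0.256% for Tnv given IL-7 and 0.908% for Tnv given IL-15. For Tcm in this order it was 0.0390%, 0.0589% and 4.45%, and Tem had 0.0198% untreated and 0.0199% after IL-15. The BBA share was 2.75%, 2.69% and 9.60% for Tnv, then 0.283%, 3.08% and 23.5% for Tcm, and Tem had 0.208% untreated and 1.81% after IL-15. Averaged over the 8 CD8 conditions, again none of 30 pairs was called by edgeR, with 4 at an unadjusted p under 0.05 and none by DESeq2, beside 5.23% of all genes for AAB minus WT, 16.2% for BBA minus WT and 3.82% for BBA minus AAB. Without cytokine, CD4 Tnv had no call among the 10 genes in either genotype by edgeR or DESeq2, and none had an unadjusted p under 0.05 (0.355% of all genes in AAB and 1.13% in BBA). With IL-7, they had 1 in AAB (0.637%) and 1 in BBA (5.51%).

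In the comparison of cytokine culture with no cytokine, 13 of 147 pairs were called in CD8 cells, 12 of them lower with cytokine, a share within the range of those over all genes. In CD4 Tnv with IL-7, 12 of 30 were called, all lower. The share of all genes called in WT, AAB and BBA was 18.7%, 13.0% and 10.1% for IL-7 in CD8 Tnv, 5.72%, 14.7% and 19.0% for IL-15 in CD8 Tnv, 3.17%, 4.21% and 5.78% for IL-7 in CD8 Tcm, 3.66%, 0.896% and 5.20% for IL-15 in CD8 Tcm, 1.73%, 2.03% and 7.62% for IL-15 in CD8 Tem, and 16.3%, 13.1% and 13.6% for IL-7 in CD4 Tnv. In WT CD8 Tnv with IL-7, 6 of the 10 genes fell, and in CD4 Tnv with IL-7 4, 6 and 2 of the 10 fell in WT, AAB and BBA.

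**Figure D1:**
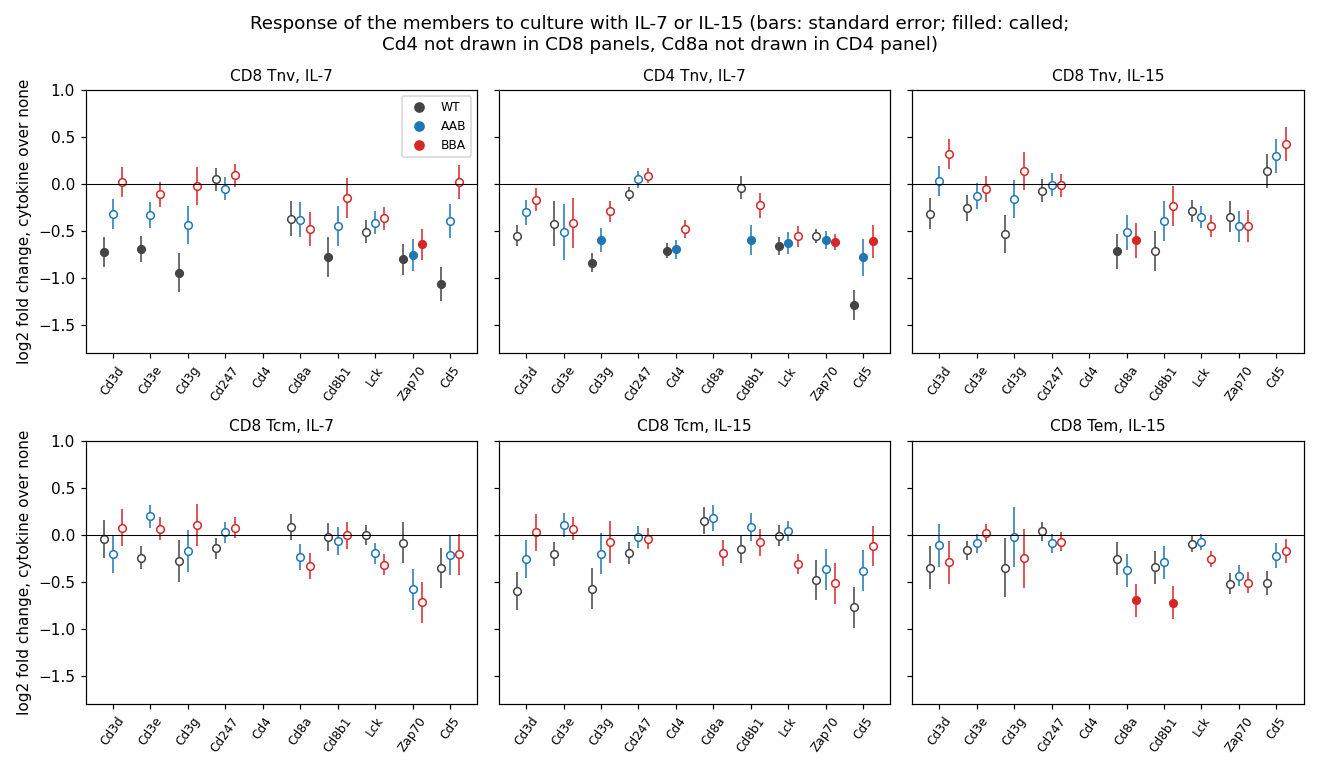
Log2 fold change of each gene with cytokine over no cytokine (vertical axis) for 3 genotypes in 6 cell and cytokine pairings; bars are standard errors and filled points passed 1.5-fold and an adjusted p under 0.05. Cd4 in CD8 cells and Cd8a in CD4 cells, both near 0 counts, are not drawn. Filled points lie below 0 throughout, with Cd5 lowest (-1.07 in WT CD8 Tnv and -1.29 in WT CD4 Tnv with IL-7), and Cd247 has no filled point.

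Among the signalling chains, the 3 CD3 genes fell with IL-7 in WT CD8 Tnv and Cd247 did not. Cd3g was at 599 and 517 CPM without cytokine and at 297 and 285 with IL-7, a log2 fold change of -0.94 (SE 0.205, adjusted p = 0.00459). Cd3d went from 444 and 411 to 256 and 265 (-0.72, SE 0.163, adjusted p = 0.00578), and Cd3e from 577 and 529 to 348 and 340.1 (-0.69, SE 0.138, adjusted p = 0.00279). In none of the 3 did the 2 groups overlap, and all 3 calls held with any 1 of the 18 CD8 Tnv libraries left out. Cd247 was at 344 and 306 CPM without and at 337 and 337 with IL-7 (0.05), so its share of the summed length-corrected chain transcripts went from 10.1% to 16.7% (means of 2 libraries each).

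The knockout Tnv did not show a called fall of any CD3 chain. In AAB, Cd3d was at 438 and 427 CPM without cytokine and at 360 and 338 with IL-7, and in BBA at 399 and 340 without and 393 and 374 with it. Cd3g in BBA was at 466 and 370 without and at 426 and 420.1 with IL-7. The BBA response thus exceeded the WT response by 0.74 for Cd3d (SE 0.230, adjusted p = 0.131) and by 0.92 for Cd3g (SE 0.288, adjusted p = 0.133), neither of which passed the test. Under IL-7 itself, BBA Tnv stood above WT Tnv by 0.54 for Cd3d (adjusted p = 0.0529) and by 0.52 for Cd3g (adjusted p = 0.0823), with no overlap between the libraries but no call. The difference in response of Cd3d was called for IL-7 without BBA replicate 1 with IL-15 (0.77, adjusted p = 0.05) and for IL-15 without BBA replicate 2 (0.85). The summed level of 5 memory T cell markers was 277 and 280 CPM in WT Tnv with IL-7 and 383 and 532 in BBA. That of 5 natural killer markers was 185 and 188 in WT and 334 and 528 in BBA. Eomes is in both lists. Over the 48 CD8 libraries the natural killer sum was mainly Eomes (mean 216 CPM) and Nkg7 (310). Ncr1 (0.831), Klrb1c (1.13) and Klra8 (0.0236) were nearly absent there. The part of these markers in the results was not tested.

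In CD4 Tnv Cd3g was the one chain called in WT. With IL-7 it fell from 460.1, 494 and 522 CPM to 269, 279 and 278 (-0.84, SE 0.103, adjusted p = 4.18e-05). Cd3d went from 335, 385 and 415 to 238, 278 and 259 (-0.55, adjusted p = 0.00178), under the fold required, though it passed without WT replicate 1 without cytokine (-0.63) or WT replicate 2 with IL-7 (-0.60). In AAB Cd3g fell by 0.60 on the log2 scale (adjusted p = 0.00403), from 441 and 520 to 316 and 322 CPM, a call lost without replicate 2 of either condition (-0.47 and -0.58). In BBA the change of Cd3g was -0.29 (adjusted p = 0.0707). With IL-7, BBA CD4 Tnv held Cd3g at 317, 346 and 434 CPM, all above the 3 WT libraries, a difference of 0.41 (adjusted p = 0.0323), and Cd3d at 294, 362 and 342 (0.37, adjusted p = 0.0334), both under 1.5-fold. Cd3e split by replicate rather than by group: without cytokine, replicate 1 of WT, AAB and BBA had 548, 603 and 569 CPM and the other libraries 312 to 409.

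IL-15 gave no called change of a CD3 chain in any state or genotype. WT Tnv with IL-15 held Cd3d at 379 and 300 CPM and Cd3g at 435 and 325, between the values without cytokine and with IL-7. In AAB and BBA Tnv with IL-15 Cd3d was at 476 and 392 and at 525 and 374 CPM, on both sides of the untreated AAB libraries and in or above the range of the untreated BBA libraries. WT Tcm with IL-15 had 334 and 293 CPM of Cd3d where untreated Tcm had 581 and 391 (-0.60, adjusted p = 0.103), a change that was called without either WT Tcm IL-7 library (-0.63 and -0.60). Cd247 was 214.5 to 370.5 CPM over all CD8 libraries and was called in no CD8 or CD4 comparison.

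**Figure D2:**
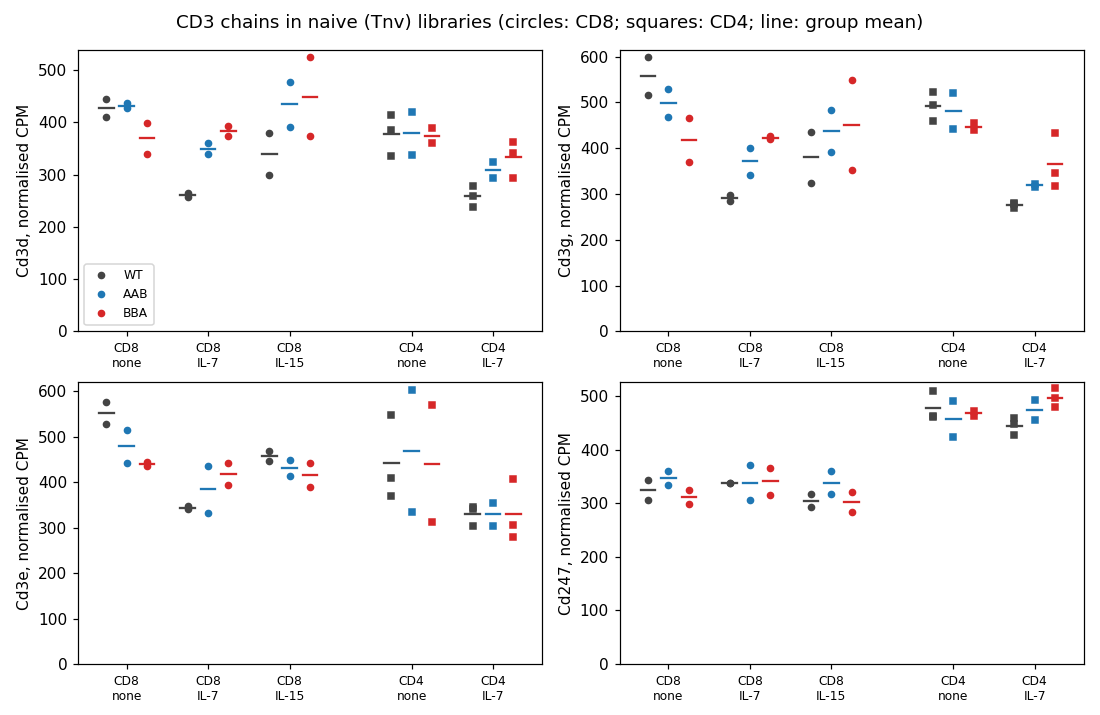
Normalised CPM of the 4 signalling chains in each naive library (points; lines are group means), by lineage and culture, with WT in grey, AAB in blue and BBA in red. Under IL-7 the WT CD8 libraries of Cd3d (256 and 265 CPM) and Cd3g (297 and 285) lie under those of AAB and BBA, while Cd247 is level across cultures.

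In WT Tnv, Cd8b1 was called lower with IL-7 and Cd8a with IL-15. In WT Tnv Cd8b1 went from 1290 and 1136 CPM to 703 and 723 with IL-7 (-0.77, SE 0.213, adjusted p = 0.0166), a call lost without WT replicate 1 without cytokine (-0.68, adjusted p = 0.0975) and without replicate 1 (-0.76) or 2 (-0.78) with IL-7. Cd8a went from 1590 and 1505 to 1243 and 1165 CPM (-0.37, adjusted p = 0.154). The ratio of Cd8a to Cd8b1 per kilobase was 0.521 in WT Tnv without cytokine and 0.689 with IL-7, beside a median of 0.570 over the 48 CD8 libraries. AAB Tnv with IL-7 kept Cd8b1 at 1004 and 808 CPM and BBA at 1019 and 1043, against 1252 and 1199 and 1188 and 1038 without cytokine. BBA stood above WT with IL-7 by 0.51 (SE 0.140, adjusted p = 0.12), which is no call. That the 2 cytokines differ in their effect on Cd8a or Cd8b1 was not tested.

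With IL-15 Cd8a fell in WT Tnv from 1590 and 1505 to 1160 and 697 CPM (-0.72, SE 0.185, adjusted p = 0.0303). The lower library is the one with 236 CPM of Cd4, and without it the change was -0.39 (adjusted p = 0.207); leaving out either untreated WT library also ended the call (-0.68 and -0.75). In BBA Tnv, which has no such library, Cd8a fell from 1722 and 1502 to 1022 and 1058 CPM (-0.60, SE 0.185, adjusted p = 0.0268), a call lost without replicate 1 or 2 without cytokine (-0.51 and -0.69) or BBA replicate 1 with IL-15 (adjusted p = 0.0928). In AAB Tnv Cd8a went from 1574 and 1440 to 1011 and 1062 (-0.52, adjusted p = 0.0639). All 6 Tnv libraries with IL-15 thus lay below all 6 without, in each genotype. Cd8b1 in WT went to 939 and 519.6 CPM (-0.71, adjusted p = 0.059). Without WT replicate 1 with IL-15 the value was -1.21, which rests wholly on the library with 236 CPM of Cd4. Replicate 1 by itself stood at 939 CPM, against 1290 and 1136 without cytokine. Cd8b1 was just called without 1 AAB library with IL-7 or 1 BBA library with IL-15 (adjusted p = 0.0468 to 0.0491, either replicate).

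In Tem, both CD8 coreceptor genes were called lower with IL-15 than without cytokine in BBA. Cd8a fell from 1988 and 1606 to 1232 and 960.1 CPM (-0.70, SE 0.177, adjusted p = 0.0378) and Cd8b1 from 1146 and 1023 to 706 and 592 (-0.72, SE 0.176, adjusted p = 0.0335). Each call held in 5 of 12 fits that left out 1 library. The value ranged from -0.92 to -0.52 for Cd8a and from -0.89 to -0.60 for Cd8b1, and both calls were lost without WT replicate 1 or 2, AAB replicate 1, or BBA replicate 1 or 2 without cytokine, or without BBA replicate 2 with IL-15. That of Cd8a was also lost without AAB replicate 2 without cytokine (adjusted p = 0.0537) and that of Cd8b1 without BBA replicate 1 with IL-15 (adjusted p = 0.0588). WT Tem with IL-15 had 1693 and 1278 CPM of Cd8a against 1886 and 1699 without (-0.25), and the BBA response was not shown to differ from it: in the test of the difference none of the 10 genes was called. In Tcm neither Cd8a nor Cd8b1 was called with either cytokine against none in any genotype. WT Tcm with IL-15 held 1722 and 1511 CPM of Cd8a, against 1610 and 1359 without (0.15). BBA Tcm with IL-15 lay under WT Tcm with IL-15, at 1253 and 1161 CPM, a difference of -0.39 (adjusted p = 0.0284) that is under the fold required. With edgeR's own filter on low counts it was -0.61, but the median of all genes in this comparison then moved by -0.212.

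**Figure D3:**
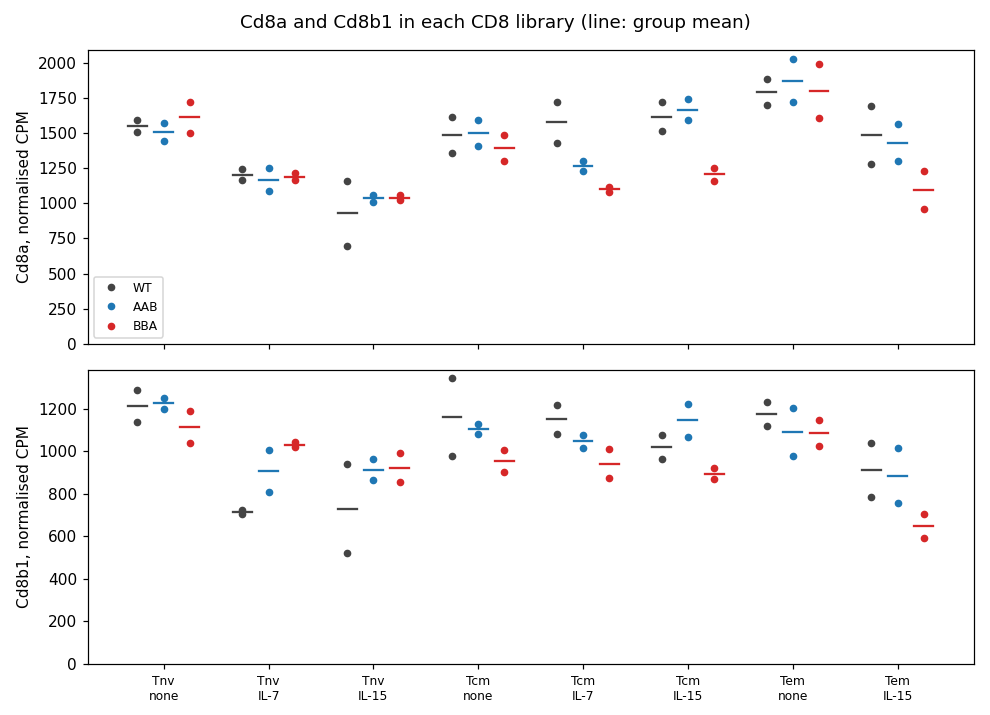
Normalised CPM of Cd8a (top) and Cd8b1 (bottom) in each of the 48 CD8 libraries (points; lines are group means), by state and culture. In Tnv the Cd8a libraries with IL-15 (697 to 1160 CPM) all lie below those without cytokine (1440.0 to 1722), and in Tem BBA with IL-15 (1232 and 960.1 CPM of Cd8a) is lowest.

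Cd4, the class II coreceptor, fell with IL-7 in CD4 Tnv of WT and AAB, and in BBA the change was under 1.5-fold. WT went from 1067, 1036 and 1182 CPM to 608, 697 and 704 (-0.71, SE 0.084, adjusted p = 3.27e-05). AAB went from 1095 and 1011 to 627 and 677 (adjusted p = 0.000403), and BBA from 1054 and 967 to 672, 746 and 752 (-0.48, adjusted p = 0.00205). In no genotype did the groups overlap. The response differed from that of WT by 0.01 in AAB and by 0.23 in BBA (SE 0.133 and 0.126), with no call.

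In CD8 libraries the few Cd4 reads gave 2 further values. WT Tnv with IL-15 was called higher than without (4.78, SE 1.109, adjusted p = 0.0173), but the 2 libraries held 78 and 3864 counts, and without the second the value was 0.57 (adjusted p = 0.783). Without untreated WT replicate 1 or 2 the call was lost as well (4.68 and 4.90). In that second library the summed level of 5 CD4 lineage markers was 457 CPM against 24.1 to 39.3 in the other Tnv libraries with IL-15. Cd4 itself is 1 of these 5, at 236.5 CPM in that library. The sum of 4 regulatory T cell markers was 335 CPM against 38.9 to 69.1. The part of these markers in the result was not tested. With IL-7, Cd4 in CD8 Tnv was at 0.0799 to 1.51 CPM in all 6 libraries and without cytokine at 4.10 to 7.59, with no call (-4.95 in WT, adjusted p = 0.0792). Without either WT IL-15 library, it was called in WT (adjusted p = 0.00264 and 0.00319), in AAB (-3.61 and -3.62) and in BBA (-2.82 and -2.85). Summed B cell markers moved the same way, from 54.4 to 134 CPM in the 6 libraries without cytokine to 8.92 to 51.4 with IL-7, and myeloid markers from 21.9 to 82.7 to 5.10 to 14.0.

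Cd8b1 in CD4 Tnv, at low counts, was called in the 2 comparisons that used AAB with IL-7. Those libraries had 9.09 and 11.4 CPM, against 15.6 and 15.4 in AAB without cytokine (-0.60, adjusted p = 0.0167) and 19.8, 17.2 and 16.5 in WT with IL-7 (-0.79, SE 0.143, adjusted p = 0.0459). The difference from WT was called in 1 of 8 fits that left out a library, with values from -0.96 to -0.64: of the libraries with IL-7, it was kept only without BBA replicate 2. The fall with IL-7 was lost without AAB replicate 1 (-0.59) or 2 (adjusted p = 0.0645) without cytokine, or AAB replicate 2 with IL-7 (-0.44).

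Of the kinases, Zap70 fell with IL-7 in CD8 Tnv of all 3 genotypes. It went from 297 and 295 to 167 and 174 CPM in WT (-0.80, SE 0.167, adjusted p = 0.00355), from 305 and 318 to 206 and 166 in AAB (-0.75, adjusted p = 0.00762) and from 285 and 285 to 206 and 169 in BBA (-0.64, adjusted p = 0.021). The WT call held in all 18 fits without 1 library. The AAB call was lost without AAB replicate 2 of either condition (-0.71 and -0.59), and the BBA call without replicate 1 or 2 without cytokine (-0.65 and -0.63) or BBA replicate 2 with IL-7 (-0.49). Lck changed by -0.51 in WT (adjusted p = 0.00726), from 982 and 946 to 675 and 687 CPM, and -0.41 in AAB (adjusted p = 0.028), both under 1.5-fold.

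In CD4 Tnv with IL-7, Zap70 fell by 0.60 in AAB (adjusted p = 0.000618) and by 0.61 in BBA (adjusted p = 0.000211) on the log2 scale. WT differed little from these at -0.55 (adjusted p = 0.000123), from 250, 280 and 283 to 172, 183 and 198 CPM, so that only the fold limit parts the genotypes. Lck fell in WT from 972, 1094 and 1118 to 664, 640 and 708 CPM (-0.66, adjusted p = 0.000174) and in AAB from 931 and 1130 to 627 and 712 (-0.63, adjusted p = 0.00209); in BBA the change was -0.56 (adjusted p = 0.0019). Leaving out AAB replicate 2 of either condition put both AAB calls under the fold limit (-0.55 and -0.56 for Zap70, -0.48 and -0.53 for Lck), and leaving out BBA replicate 1 with IL-7 did so for Zap70 in BBA (-0.56).

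With IL-15 neither kinase was called in any cell state or genotype. In WT Tem it went from 350 and 351 to 245 and 237 CPM (-0.52, adjusted p = 0.0533) and in BBA Tem from 339 and 354 to 253 and 228 (-0.51, adjusted p = 0.0241), both under 1.5-fold. Zap70 was called without replicate 2 with IL-15 in AAB Tnv (-0.67) and BBA Tnv (-0.70), with Lck also called in the latter (-0.60), and without BBA replicate 1 with IL-15 in Tem (-0.62). In Tcm with IL-7, Zap70 was at 223 and 224 CPM in AAB and 199 and 206 in BBA, against 312 and 362 and 318 and 355 without cytokine (-0.58 and -0.72, the latter with adjusted p = 0.0591). WT Tcm with IL-7 gave 444 and 226 CPM. Without its replicate 1, the WT value was -0.64 for Zap70, -0.91 for Cd5 and -2.92 for Cd4. That library was singled out by its own Zap70 level, and leaving it out leaves 1 WT library with IL-7. These WT values are therefore descriptions and no test of a fall. In the same fit, Zap70 was called in AAB (-0.59) and BBA (-0.71). Without replicate 2 in place of replicate 1, which again leaves 1 WT library with IL-7, AAB and BBA lay below WT for Zap70 (-0.92 and -1.04). BBA Zap70 was also called then against no cytokine (-0.72), and BBA lay below WT for Cd5 (-0.65). What WT Tcm with IL-7 show of Zap70 and Cd5 thus turns on which of the 2 libraries is used, and these WT libraries were male where all Tcm without cytokine were female.

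Cd5, the inhibitory receptor, had the largest called fold of the 10 genes with IL-7 in WT Tnv of both lineages. In WT CD8 Tnv it fell from 219 and 200.1 CPM to 108 and 93.1 with IL-7 (-1.07, SE 0.184, adjusted p = 0.00109), a call kept in all 18 fits without 1 library. AAB went from 215 and 213 to 180.1 and 149 CPM (-0.39, adjusted p = 0.15) and BBA from 175 and 164 to 199 and 154 (0.02, adjusted p = 0.947). The BBA response exceeded the WT response by 1.09 (SE 0.258, adjusted p = 0.0491), the single call among 118 gene and comparison pairs in which the responses of genotypes were compared, with 15 at an unadjusted p under 0.05 and 5 calls by DESeq2. That call sits at the threshold and was lost in 11 of 18 fits that left out 1 library (value 0.88 to 1.27). The libraries were WT, AAB and BBA replicates 1 and 2 without cytokine, WT replicates 1 and 2 and BBA replicate 1 with IL-7, and AAB replicates 1 and 2 with IL-15, with adjusted p = 0.0618 to 0.192. For AAB the difference was 0.68 (adjusted p = 0.503).

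The share of all genes called in these tests of a difference, for AAB and BBA, was 0.305% and 1.86% for IL-7 in CD8 Tnv, 0.0286% and 1.48% for IL-15 in CD8 Tnv, 0.311% and 1.07% for IL-7 in CD8 Tcm, 0% and 4.47% for IL-15 in CD8 Tcm, 0% and 0.00966% for IL-15 in CD8 Tem, and 0.0190% and 1.10% for IL-7 in CD4 Tnv. These comparisons share the WT libraries, and those of the 2 cytokines in a state also share the libraries without cytokine.

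Under IL-7, Cd5 in CD8 Tnv lay above WT in both knockouts, by 0.71 in AAB (SE 0.181, adjusted p = 0.268) and by 0.79 in BBA (SE 0.181, adjusted p = 0.0798). Neither passed the test as fitted. With the replicate number as a block, both did (0.70, adjusted p = 0.0321, and 0.79, adjusted p = 0.00839). That pairing was only read from the same libraries (correlations of deviations 0.154 to 0.386), and 2 libraries a group cannot establish it. A fit over all 48 CD8 libraries also called BBA (0.81, adjusted p = 0.0105). The BBA difference was further called without AAB replicate 1 or 2 with IL-7 (adjusted p = 0.0311 and 0.0322). Without cytokine, the order was the other way round, with WT at 219 and 200.1 CPM above BBA at 175 and 164 (-0.31, adjusted p = 0.0706).

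CD4 Tnv gave the same ordering with more libraries. In WT Cd5 fell from 444, 575 and 375 CPM to 170.2, 230 and 169 with IL-7 (-1.29, SE 0.161, adjusted p = 4.95e-05), in AAB from 394 and 532 to 253 and 288 (-0.78, adjusted p = 0.0115) and in BBA from 491 and 490 to 328, 301 and 335 (-0.61, adjusted p = 0.0199). With IL-7, the 3 BBA libraries lay above the 3 WT libraries by 0.76 (SE 0.120, adjusted p = 0.00469), a call kept in all 8 fits without 1 library, and AAB lay above WT by 0.51 (adjusted p = 0.158; 0.67, adjusted p = 0.034, without WT replicate 2). Without cytokine the genotypes overlapped, at 375 to 575 CPM. The difference between the BBA and WT responses was not called in CD4 cells (0.68, SE 0.239, adjusted p = 0.275). The AAB fall was lost without AAB replicate 2 of either condition (-0.55 and -0.69), and the BBA fall without BBA replicate 1 (adjusted p = 0.0778) or 2 (adjusted p = 0.0899) without cytokine or replicate 2 with IL-7 (-0.57).

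With IL-15, Cd5 was not called in Tnv. With IL-15 it was at 185 and 272 CPM in WT, 235 and 282 in AAB and 203 and 243 in BBA, overlapping the untreated WT libraries and above both untreated BBA libraries (0.43 in BBA, adjusted p = 0.0972). In WT memory cells it was not called either, at 181 and 186 CPM in Tcm against 340.3 and 298 without cytokine (-0.77, adjusted p = 0.0609) and 246 and 217 in Tem against 360.5 and 312 (-0.52, adjusted p = 0.0836). The Tcm value was called without either WT Tcm IL-7 library (-0.80 and -0.77), as was the difference between the BBA and WT responses of Tcm (0.70 and 0.65).

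**Figure D4:**
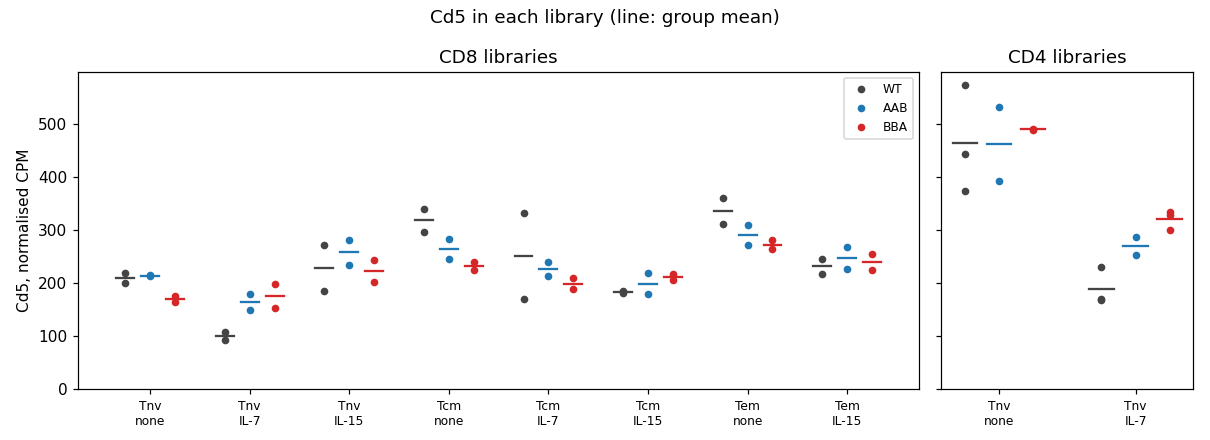
Normalised CPM of Cd5 in each CD8 library (left) and CD4 library (right), by state, culture and genotype; points are libraries and lines group means. In Tnv with IL-7 the WT libraries (108 and 93.1 CPM in CD8; 170.2, 230 and 169 in CD4) lie below all AAB and BBA libraries, whereas without cytokine they do not.

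Among cell states of WT CD8 cells without cytokine, 1 of 27 pairs was called. This was Cd5, at 360.5 and 312 CPM in Tem against 219 and 200.1 in Tnv (0.70, SE 0.122, adjusted p = 0.0154), a call lost without Tnv replicate 1 (0.76, adjusted p = 0.11) or 2 (0.64), or Tem replicate 1 (0.59). Of all genes 8.08% were called for Tem minus Tnv, 2.78% for Tcm minus Tnv and 1.95% for Tem minus Tcm. Tcm held 340.3 and 298 CPM of Cd5, also above both Tnv libraries, with an adjusted p of 0.0618, and was called without Tcm replicate 2 (0.64, adjusted p = 0.0386). Cd247 ran the other way, at 262 and 242 CPM in Tem and 344 and 306 in Tnv (-0.35, adjusted p = 0.245). Averaged over all 8 CD8 conditions, Cd8a was lower in BBA than in WT by 0.16 on the log2 scale (adjusted p = 0.0321), far under the fold required.

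Other genes of the pathway were counted in the same way, beside the share of all genes called in either direction. Of 42 further proximal TCR signalling genes in the files, 16 fell and 3 rose in WT CD8 Tnv (median log2 fold change -0.46, beside 0 over all genes tested), 11 fell and 2 rose in AAB (-0.35, beside 0.02) and 8 fell and 1 rose in BBA (-0.29, beside -0.01), where 18.7%, 13.0% and 10.1% of all genes were called. In CD4 Tnv 14 fell and 2 rose in WT (-0.40), 15 fell and 2 rose in AAB (-0.40) and 9 fell and 1 rose in BBA (-0.25), with all-gene medians of 0 to 0.01 and 16.3%, 13.1% and 13.6% of all genes called. Tespa1, a thymocyte-expressed regulator of TCR signalling, fell most in CD4 WT (-2.81, adjusted p = 1.55e-08) and by 1.83 in WT CD8 Tnv (adjusted p = 3.64e-05). Sit1, an adaptor that tempers TCR signals, changed by -2.04 in WT CD8 Tnv, and the phosphatase Ptpn6 (SHP-1) by -1.82 in WT CD4 Tnv. Against them, Rasgrp1, which couples the receptor to Ras, rose in both (0.84 and 1.27), as did Txk, a Tec family kinase (0.92 and 0.95), and Ptpn22 rose in WT CD8 Tnv (0.63). The genes that fell thus include inhibitors as well as activators of the receptor.

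With IL-15, 4 fell and none rose in WT Tnv (median -0.15), where 5.72% of all genes were called, and 9 fell and 3 rose in BBA Tnv (-0.26), where 19.0% were. Between genotypes, 5 rose and none fell in BBA Tcm with IL-15 against WT (median 0.17, beside 0), among them Sh2d1a (SAP, 1.30, adjusted p = 0.00218), the costimulator Cd28 (0.76) and the adaptor Lax1 (0.70), where 23.5% of all genes were called. In CD4 Tnv with IL-7, 4 rose in BBA, including Cd6, a close relative and neighbour of Cd5 (0.68, adjusted p = 0.00363), Sla (0.68) and Ubash3b (1.08), where 5.51% of all genes were called. Sh2d1a and Cd28 also rose in BBA CD8 Tnv with IL-7 (1.28 and 1.08), where 2.69% were.

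Of 16 genes known to regulate the coreceptor loci, 5 fell in WT CD8 Tnv with IL-7 and 4 in WT CD4 Tnv, with none rising (medians -0.44 and -0.36), beside 18.7% and 16.3% of all genes called. Zbtb7b (ThPOK), which maintains the CD4 lineage, changed by -1.28 in WT CD4 Tnv (adjusted p = 7.68e-06), beside the fall of Cd4 in the same libraries. Gata3 changed by -1.75 and Tox by -1.28 in WT CD8 Tnv. In BBA Tcm with IL-15, where 23.5% of all genes were called, 6 were above WT and 1 below, led by Myb (2.65, adjusted p = 9.44e-05), Tox (1.48) and Tcf7 (0.85), with the DNA methyltransferase Dnmt1 below (-0.86).

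Over the 48 CD8 libraries the levels of some members ran together. Pearson's r on log2 CPM was 0.89 for Cd3d and Cd3g, whose promoters are shown above, 0.841 for Lck and Zap70, 0.752 for Cd8a and Cd8b1 and 0.733 for Zap70 and Cd5. Cd3e, though a neighbour of Cd3d, had an r of 0.397 with it, and Cd247 went against Cd5 (-0.439). Of all genes kept by the filter, those most like Cd5 were Cd6 (0.943), Trpv2 (0.819) and Ppp1r35 (0.816). For Cd8a they were Nkg7 (0.821), Apmap (0.80) and Lcp1 (0.795), and for Cd8b1 Actr2 (0.837), Actr3 (0.82) and Psmb10 (0.796). For the few Cd4 reads they were Cebpd (0.718), Il1rl1 (0.661) and Cxcr1 (0.65). The Cd4 values include WT Tnv with IL-15 replicate 2, at 236.5 CPM beside a median of 3.40. That library can carry much of such a correlation, and no values without it are given. These points share genotypes, cultures and replicate numbers, and the values are descriptions without a test.

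The retrovirus libraries went against their label in the genes of the TCR complex. The coreceptor genes were almost missing: Cd8a stood at 1.40 to 3.18 CPM (23 to 41 counts) and Cd8b1 at 0.305 to 1.57 (5 to 20 counts), both removed by the filter on low counts, where no WT CD8 library held under 519.6 CPM of either. Cd3e was at 2.80 to 14.9 and Cd5 at 2.13 to 7.35 CPM. Lck (738 to 890.0) and Zap70 (205 to 269) were in the range of the sorted CD8+ cells, and Cd247 (153 to 257) reached below it. Natural killer cells are known to use these last genes as well. Natural killer markers were high, with Ncr1 at 1129 to 1460 CPM, Klrb1c at 231 to 593 and Nkg7 at 971 to 1513. Eomes stood at 726 to 819 CPM, but Klra8, also on the list, was nearly absent at 0 to 0.122. The summed level of the 5 markers was 3345 to 4154, against 160 to 1286 in WT CD8 libraries. The retrovirus libraries are therefore called only the libraries labelled S5a and Ctl.

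Replicate 1 of each vector was male and replicate 2 female. Between the vectors, 4 of 8 members tested were called, 3 lower and 1 higher with S5a, beside 6.63% of all genes. Cd3d was at 6.09 and 15.9 CPM with S5a and at 42.3 and 96.4 with Ctl (-2.69, SE 0.526, adjusted p = 0.0322), and Cd3g at 10.4 and 20.0 against 47.8 and 103 (-2.33, SE 0.430, adjusted p = 0.0268). Both calls were lost without S5a replicate 1 (-2.12 and -1.91). Cd4 was at 7.25 and 8.23 against 20.3 and 26.7 (-1.60, adjusted p = 0.00891), a call kept in all 4 fits without 1 library. Cd247 was at 257 and 257 against 186 and 153 (0.60, adjusted p = 0.0422), a call lost without either S5a library (adjusted p = 0.155 and 0.113) or Ctl replicate 2 (0.46).

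Cd3e was at 2.80 and 9.24 against 14.9 and 13.9 (-1.29, adjusted p = 0.197), and was called without S5a replicate 2 (-2.35, adjusted p = 0.0138). Cd5 was at 2.13 and 3.88 against 6.98 and 7.35 (-1.28, adjusted p = 0.115). Lck and Zap70 differed by 0.09 and -0.03. Summed levels of the cell type marker lists differed between the vectors too. The summed B cell markers were 9.38 and 26.0 CPM with S5a and 146 and 89.9 with Ctl. Myeloid markers summed to 1309 and 1161 against 585 and 454, and NK markers to 3962 and 4154 against 3661 and 3345. Itgam was the largest part of the myeloid sum, at 290.8 to 1270 CPM over the 4 libraries. Lyz2 was at 22.55 to 199.7 and Csf1r at 8.532 to 71.49, so the sum does not show how these moved. The part of these markers in the results was not tested. Trat1, a TCR-associated adaptor, changed by -4.20 and Tcf7 by -2.24, and of the 40 other pathway genes tested 8 fell and 1 rose, again beside 6.63% of all genes. The vector's own gene was seen, with Stat5a at 60.0 and 61.0 CPM against 8.45 and 3.22. Stat5b, which the vector does not carry, was also called higher with S5a (1.05, SE 0.13, adjusted p = 0.00808). The cause of that difference was not tested.

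**Figure D5:**
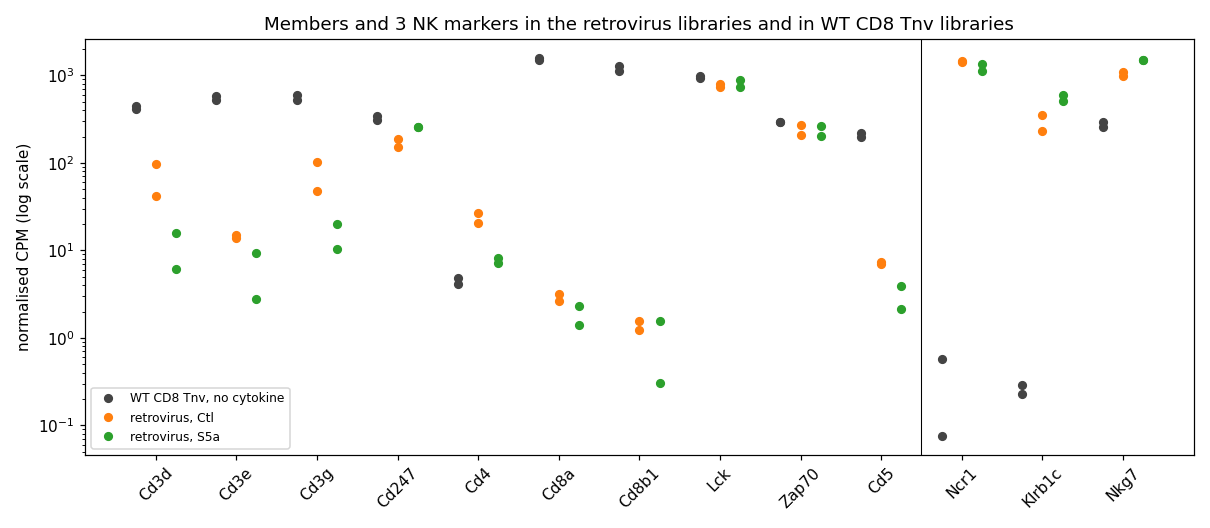
Normalised CPM on a log scale of the 10 genes and of 3 natural killer markers in WT CD8 Tnv without cytokine (grey), Ctl (orange) and S5a (green) retrovirus libraries; each point is 1 library and the line parts the genes from the markers. Cd8a and Cd8b1 lie at 0.305 to 3.18 CPM in the retrovirus libraries and at 1136 to 1590.0 in Tnv, while Ncr1 stands at 1129 to 1460 in the retrovirus libraries. The tables were normalised separately.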

How the data were processed

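RNA was measured by sequencing poly(A) mRNA of sorted mouse T cells and of transduced cells labelled as CD8+ T cells. The deposited values are raw counts per gene and library in 3 tables. Per the labels, the authors used TopHat2, Cufflinks and HTSeq. The labels name mm9 and the study's methods mm10, and the strand setting of the counting is not given in the sources used here. HTSeq's summary rows, 67.0 to 68.4% of the counts in the retrovirus libraries, were left out. Coordinates and exon lengths come from GRCm38.

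Genotypes, cytokine responses, their differences and cell states were tested with edgeR 4.0.16 (R 4.3.3; TMM, quasi-likelihood test in its older form) after a Jaccard filter on low counts re-implemented after HTSFilter. Calls needed over 1.5-fold and a Benjamini-Hochberg adjusted p under 0.05 over all genes tested. Levels are CPM of the TMM-scaled library, and correlations used log2(CPM + 1). Genotypes were compared within a condition, responses within a cell state. The members, the lists (46 and 17 genes) and the tests were chosen with earlier results of these data known. From a list, at most the 3 most changed called genes per direction are named, if their mean normalised count is 50 or more. Alternatives were DESeq2 1.42.0 and its size factors, other filters, edgeR's newer test, no fold limit, other sets of libraries, a replicate block and each library left out.

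Same-numbered libraries deviated together (every correlation of deviations over 0.1) in the genotype comparisons of CD8 Tnv, Tem and CD4 Tnv without cytokine, CD8 Tcm without cytokine and with IL-15, in the Tem cytokine response and in cell states, as read from the data; in the other fits they did not. All 38 replicate pairs differed by more than sampling noise. On simulated counts, 67% of 2-fold changes were recovered for WT CD8 Tnv with IL-7 (10473 genes) and 72% for AAB against WT Tnv without cytokine (10216 genes). The labels of 2 CD4 libraries contradict each other on the cytokine, and these stay out of comparisons.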

Additional observations from a re-analysis of the deposited data

Results flagged for a closer look

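In 6 cases the response of BBA cells to a cytokine differed from that of WT cells in the test of the difference itself by edgeR. Among the 10 genes, this was Cd5 in CD8 Tnv with IL-7, whose BBA response lay 1.09 above that of WT on the log2 scale (SE 0.258, adjusted p = 0.0491). It kept its direction but lost the call in 11 of 18 fits without 1 library.

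Among the regulators of the coreceptor genes, the response of CD8 Tcm to IL-15 in BBA exceeded that in WT by 1.60 for Myb (adjusted p = 0.0092) and by 0.85 for Gata3 (adjusted p = 0.0378), and the difference was -0.96 for Dnmt1 (adjusted p = 0.00606). Among the other proximal TCR signalling genes, the IL-7 response of CD4 Tnv differed by 0.74 for Sla (adjusted p = 0.042) and by -0.77 for Txk (adjusted p = 0.0189). No group was large enough to search for single outlying libraries, since all held 2 or 3.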

How the results depend on the processing

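Cd4 in WT CD8 Tcm with IL-7, not called at 0.58, stood at -2.92 without WT Tcm IL-7 replicate 1, a fit that leaves 1 library in that group. Of the CD8 genotype comparisons, which gave 0 calls, filterByExpr gave 2, no filter 6, DESeq2 3, adjusted p alone 1, 1 fit over all 48 libraries 4, and leaving out 1 library 0 to 4 (4 without WT Tcm IL-7 replicate 2). The average over conditions went from 0 to 1 with adjusted p alone. The 13 calls of the CD8 cytokine responses became 23 without a filter and 10 to 20 without 1 library (20 without WT Tcm IL-7 replicate 1). The single difference in response became 4 without a filter, 5 by DESeq2 and 0 to 4 without 1 library, an alternative chosen after seeing the data. The count was 0 to 2 for cell state, 1 to 2 for CD4 genotypes (4 with adjusted p alone), 7 to 14 for the CD4 response and 1 to 4 for the retrovirus libraries (1 without S5a replicate 1). The cause of these shifts was not tested.

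In fits with a replicate block, the CD8 genotype comparisons gave 2 calls and the differences in response 3. Where same-numbered libraries deviated together, the block changed only the 2 calls of Cd5 in Tnv with IL-7 given in the report. Where they share only a number, it called Cd8b1 in WT Tnv with IL-15 (-0.74), Cd3d and Cd3g for the BBA difference in Tnv IL-7 response (0.74 and 0.93), Cd3d in WT Tcm with IL-15 (-0.59), Lck in BBA CD4 Tnv (-0.60) and Cd3e in the retrovirus libraries (-1.45), and lost Cd5 in BBA CD4 Tnv (-0.57) and Cd247 in the retrovirus libraries (adjusted p = 0.0569).

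Over all genes, CD8 genotype calls numbered 4947 (51.3% higher) and 11346 with filterByExpr (62.5%), 21375 without a filter, 9247 by DESeq2, 8666 with the block and 8342 in 1 fit. The average gave 2921 (78.7% higher), 5258 with filterByExpr, 4976 without a filter and 10574 with adjusted p alone (48%). CD8 responses gave 12119 and 18537 without a filter, differences in response 1124, 2060 without a filter and 2774 by DESeq2, and states 1282 (84.2% higher), 3160 without a filter (73.9%) and 2616 with the block (74.1%). CD4 genotypes gave 730, 1751 without a filter, 1126 by DESeq2 and 1392 with adjusted p alone, the CD4 response 4533 and 9359 with adjusted p alone, and the retrovirus libraries 691 and 1609 without a filter. The median of all genes moved by up to -0.315 without a filter and -0.212 with filterByExpr. Raw counts in place of counts per kilobase moved the Cd8a to Cd8b1 ratio from 0.57 to 1.40. Depth limits Cd4 in CD8 cells and Cd8a in CD4 cells, whose few counts carry wide errors.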

Other observations

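For 2 CD4 Tnv libraries the labels contradict each other on the cytokine, so they belong to no group. They held 338.8 and 368.3 CPM of Cd3d, 450.3 and 529.5 of Cd3g, 394.8 and 407.3 of Cd3e and 432.3 and 423.6 of Cd247. Cd4 was at 1009 and 964.7 CPM, Lck at 1220.0 and 1169, Zap70 at 316 and 302.1, and Cd5 at 469.7 and 691.3. The Cd5 value of the second is above those of all 15 CD4 libraries with a group.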
